A study of Mus musculus with 6 samples.

Results

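The genes described here are 10 chemokine and chemokine receptor genes, Ccl3, Ccl4, Ccl6, Ccl9, Cxcl2, Ccr1, Ccr2, Cxcr2, Cxcr4 and Cx3cr1, which were found by name among the 21684 genes of the deposited table. They comprise 5 ligands and 5 receptors. The cells were primary haematopoietic cells of mouse bone marrow, and RNA sequencing was done on 3 libraries of cells transduced with empty vector and on 3 of cells made to overexpress RUNX1-RARA. RUNX1-RARA is a fusion of the blood transcription factor RUNX1 with the retinoic acid receptor alpha, found in a variant form of acute promyelocytic leukaemia. On the vector and its promoter, the time after transduction, the age and strain of the mice and any sorting of transduced cells, nothing is given in the sources used here. No label says that the replicates are from different mice or cultures, so that p-values reflect the spread among the libraries alone, which may be technical.

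Chemokines are small secreted proteins that steer leukocytes along concentration gradients. They bind G protein-coupled receptors, which signal through inhibitory G proteins to phosphoinositide 3-kinase gamma and Rac and are then switched off by receptor kinases, arrestins and RGS proteins. In bone marrow, Cxcr4 and its ligand Cxcl12 hold progenitors and neutrophils in place, Cxcr2 and its ligands draw neutrophils out into blood, and Ccr2 with Ccl2 and Ccl7 does the same for monocytes.

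Values are the FPKM that the authors computed, read fragments scaled to gene length and library size, so that levels of different genes can be compared per length. Estimated depths lay between 26600000 and 89700000 reads per library, a 3.37-fold range, and 9 of the 10 genes reached 1 FPKM in all 6 libraries. The genes of the fusion partners, Runx1 and Rara, stood at 17.7 ± 0.993 and 12.6 ± 1.33 FPKM with empty vector and at 21.9 ± 0.248 and 15.4 ± 1.57 FPKM with RUNX1-RARA (here and below, mean ± SD over the 3 libraries of a group, n = 3); whether reads of the fusion are among them is not known. The haematopoietic marker Ptprc (CD45) stood at 156 ± 4.4 and 75.3 ± 5.63 FPKM, and Mpo, of myeloid granules, at 940.4 ± 19.1 and 707 ± 61.3 FPKM. Of the stromal and endothelial markers, Col1a1 was under 1 FPKM in every library. It went from 0.626 ± 0.0736 FPKM with empty vector to being listed at 0 in all RUNX1-RARA libraries. Pdgfrb, by contrast, rose from 0.603 ± 0.0551 to 18.7 ± 1.59 FPKM and Pecam1, which blood cells also express, from 34.4 ± 0.597 to 92.5 ± 0.805 FPKM.

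The promoters below are those of 3 neighbouring ligand genes on chromosome 11 and of Cxcl2, shown because Ccl6 and Ccl9 lie side by side and moved by unlike amounts, and because each of the 4 holds the letters of a motif known to be bound by RUNX factors, retinoid receptors or NF-kB. Each is RefSeq sequence on GRCm38.p6 from 250 bases before to 50 bases after the transcription start, written 5′ to 3′ in the direction of the gene, and capitals mark matches on either strand to TGTGGT (RUNX), AGGTCA (retinoid receptor core) or GGG, any 2 bases and TTTCC (NF-kB). Ccl6 is at chr11:83593038-83593337, Ccl9 at chr11:83578587-83578886 and Ccl3 at chr11:83649329-83649628, all on the minus strand, and Cxcl2 is at chr5:90903649-90903948 on the plus strand.
Ccl6: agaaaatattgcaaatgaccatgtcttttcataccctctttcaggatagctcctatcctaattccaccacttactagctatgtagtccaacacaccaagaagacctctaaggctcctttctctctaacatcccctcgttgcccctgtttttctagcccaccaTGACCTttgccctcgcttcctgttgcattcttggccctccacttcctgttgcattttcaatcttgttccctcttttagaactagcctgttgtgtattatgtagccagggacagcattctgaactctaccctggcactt
Ccl9: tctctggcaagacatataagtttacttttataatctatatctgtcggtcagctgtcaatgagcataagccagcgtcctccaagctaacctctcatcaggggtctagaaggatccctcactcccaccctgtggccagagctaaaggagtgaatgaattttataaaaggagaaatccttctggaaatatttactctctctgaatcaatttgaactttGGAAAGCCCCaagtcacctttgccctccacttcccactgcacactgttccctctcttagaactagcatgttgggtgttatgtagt
Ccl3: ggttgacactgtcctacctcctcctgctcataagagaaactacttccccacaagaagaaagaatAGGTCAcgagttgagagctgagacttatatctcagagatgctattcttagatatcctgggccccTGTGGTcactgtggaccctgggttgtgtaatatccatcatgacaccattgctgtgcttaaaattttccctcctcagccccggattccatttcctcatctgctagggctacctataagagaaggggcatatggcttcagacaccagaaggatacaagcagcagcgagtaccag
Cxcl2: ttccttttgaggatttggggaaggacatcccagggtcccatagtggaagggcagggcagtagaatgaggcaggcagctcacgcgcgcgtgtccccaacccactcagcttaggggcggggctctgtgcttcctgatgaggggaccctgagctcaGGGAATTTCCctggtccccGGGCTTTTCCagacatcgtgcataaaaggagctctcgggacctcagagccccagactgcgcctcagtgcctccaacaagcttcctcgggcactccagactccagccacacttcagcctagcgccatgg

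Promoters were found for 9 of the 10 genes, and motifs were counted on both strands as a description, not as sites of binding. The RUNX letters were present in 3 of the 9 (Ccl3, Ccr1 and Cx3cr1), against 16.8% of all 32851 promoters of the same length. The retinoid core was also present in 3 (Ccl3, Ccl6 and Cxcr2), against 16.3% of all promoters. The Ccl3 promoter was the only 1 of the 9 with both. The NF-kB letters were present in Cxcl2, where they occurred at 2 places as GGGAATTTCC and GGGCTTTTCC, and in Ccl9, against 1.63% of all promoters. The AP-1 letters TGANTCA were found in Ccl9 (7.81% of all promoters), the PU.1 letters GAGGAAG in Cxcl2 (13.6%), and the C/EBP letters TTGCNNAA in none of the 9 (10.8%). Of the 36 pairs among the 9 promoters, Ccl6 and Ccl9 aligned best, with 58 of 67 aligned bases identical (86.6%) over bases 192 to 265 of the Ccl6 window and 233 to 299 of the Ccl9 window.

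All 10 genes were lower in every RUNX1-RARA library than in every empty vector library, a separation seen in 32.4% of all tested genes, while 46.8% were separated the other way. Of the 9 that could be tested, 9 fell (limma, Benjamini-Hochberg adjusted p of 4.14e-06 or lower) and 0 rose, where 31.7% of all 10901 tested genes were called lower, 46.0% higher and 77.7% in either direction. The median log2 fold change of the 9 was -1.46, against 0.11 over all tested genes. The median was -2.20 over the 5 ligands and -0.95 over the 4 tested receptors. On the log2(FPKM + 1) scale 7 of the 9 fell by at least 1 unit, which 9.72% of tested genes did, and 3 by at least 2 units, which 3.64% did. The 10 genes were chosen with earlier results of these data known, so these contrasts with all tested genes are a description and not a test. In bulk RNA, fewer cells of a type and less RNA per cell cannot be told apart. Over the same libraries the summed level of 10 neutrophil markers went from between 56316 and 63360 FPKM to between 2479 and 3039 FPKM, and 10 of 10 were called lower, 3 of which passed the filter through the controls alone and so had to differ. That of 10 monocyte and macrophage markers went from between 5362 and 5861 FPKM to between 552 and 589 FPKM. Of these, 9 of 10 were lower (5 through the controls alone), with C1qa among those listed at 0 in all RUNX1-RARA libraries. Adgre1 was not called (35.8 ± 1.77 and 34.5 ± 1.47 FPKM). The largest parts of the 2 sums were S100a9 (mean 32556.5 to 1892 FPKM) and Lyz2 (4142 to 90.7 FPKM). The smallest neutrophil marker fall was that of Csf3r, 1.87-fold. The part of neutrophils, monocytes and macrophages in the falls of the chemokine genes was not tested.

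**Figure D1:**
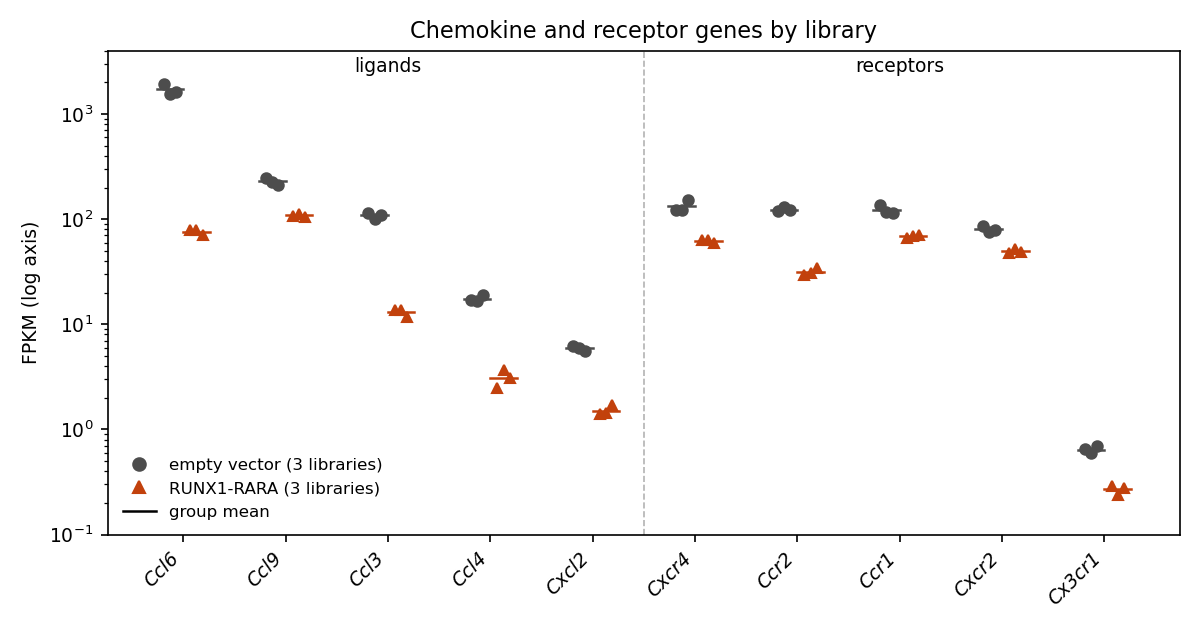
FPKM of the 10 genes in each library, on a log axis; circles are empty vector libraries, triangles RUNX1-RARA libraries and bars group means. The groups do not overlap for any of the 10 genes, and the gap is widest for Ccl6 and narrowest for Cxcr2.

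Ccl6 (ENSMUSG00000018927), a CC chemokine of mouse myeloid cells that acts through Ccr1, was the most abundant of the 5 ligands in the controls and fell furthest among the 10 genes. It stood at 1945, 1564 and 1631 FPKM in empty vector replicates 1 to 3 and at 79.6, 78.2 and 71.0 FPKM in RUNX1-RARA replicates 1 to 3. Its mean of 1713 ± 203 FPKM fell 22.5-fold to 76.3 ± 4.61 FPKM, which is -4.47 as log2 change (SE 0.0898, adjusted p = 2.43e-11 by limma). By level it ranked 17 of 10901 tested genes in the controls and 683 with the fusion. A gene on the opposite strand, E230016K23Rik, overlaps Ccl6, and no source used here gives the strand setting of the counting.

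Ccl9 (ENSMUSG00000019122), a related mouse chemokine that also acts through Ccr1 and whose gene (chromosome 11, 83572919 to 83578636 on mm10) lies 9.2 kb from Ccl6 (83587882 to 83593087), fell less. Its libraries read 249, 228 and 210 FPKM with empty vector and 108, 111 and 106 FPKM with RUNX1-RARA. The mean fell 2.11-fold from 229 ± 19.5 to 108 ± 2.83 FPKM, or -1.07 on the log2 scale (SE 0.0693, adjusted p = 2.14e-07 by limma). The order of the neighbours therefore turned over: the ratio of Ccl6 to Ccl9 within a library, which no scaling can change, was 7.48 ± 0.53 in controls and 0.703 ± 0.0313 with the fusion. Over 7 such ratios compared, exact two-sided permutation tests of 3 against 3 libraries cannot go below p = 0.1, which this one reached (0.117 after Benjamini-Hochberg adjustment). Ccl6 made up between 81.7% and 83.4% of the summed FPKM of the 5 ligands in controls, whereas Ccl9 made up between 52.7% and 54.7% in RUNX1-RARA libraries.

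Ccl3 and Ccl4, the macrophage inflammatory proteins 1 alpha and beta, attract monocytes and other leukocytes, and Ccl3 binds Ccr1. Their genes lie 13.2 kb apart on chromosome 11, on opposite strands. Ccl3 (ENSMUSG00000000982, 83647844 to 83649355) stood at 116, 99.6 and 111 FPKM in the controls and at 13.7, 13.6 and 11.8 FPKM with the fusion. The groups lay far apart, 8.36-fold in mean FPKM and -2.97 on the log2 scale (SE 0.0747, adjusted p = 1.35e-10 by limma). Ccl4 (ENSMUSG00000018930, 83662584 to 83664683) stood at 17.1, 16.5 and 19.1 FPKM and, with the fusion, at 2.50, 3.65 and 3.06 FPKM. The log2 change was -2.20 (SE 0.0987, adjusted p = 1.21e-08 by limma). Ccl4 varied most among RUNX1-RARA libraries, with a coefficient of variation of 18.7%, and rested on an estimated 44 to 82 reads in each of them. Ccl3 exceeded Ccl4 in every library, 6.2 ± 0.495 times in controls and 4.35 ± 0.969 times with the fusion (exact permutation p = 0.1, 0.117 adjusted).

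Cxcl2 (ENSMUSG00000058427; chromosome 5, 90903871 to 90905938), the macrophage inflammatory protein 2 that attracts neutrophils through Cxcr2, had the lowest level of the 5 ligands. It stood at 6.24, 5.94 and 5.57 FPKM in the controls and at 1.39, 1.43 and 1.72 FPKM with the fusion, with no overlap. The means differed 3.91-fold, with -1.46 as log2 change (SE 0.0707, adjusted p = 2.16e-08 by limma). At such levels the added 1 FPKM of the log scale understates the change: with 0.1 FPKM added instead it was -1.90. An estimated 77 to 144 reads lay behind each RUNX1-RARA value.

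Ccr2 (ENSMUSG00000049103; chromosome 9, 124101950 to 124113557), the receptor through which monocytes leave the marrow, fell furthest among the receptors. It stood at 119, 130 and 121 FPKM in the controls and at 29.5, 31.1 and 34.1 FPKM with the fusion. The mean fell 3.91-fold from 123 ± 5.48 to 31.6 ± 2.33 FPKM, or -1.93 on the log2 scale (SE 0.0647, adjusted p = 1.22e-09 by limma). Ccr1 (ENSMUSG00000025804; chromosome 9, 123962124 to 123968692), a receptor for Ccl3, Ccl6 and Ccl9 on neutrophils and monocytes, stood at 137, 117 and 114 FPKM in the controls and at 66.1, 69.6 and 70.6 FPKM with the fusion. Its log2 change was -0.82 (SE 0.0735, adjusted p = 2.63e-06 by limma). Ccr2 relative to Ccr1 was 1.01 ± 0.125 in controls and 0.459 ± 0.0212 with the fusion (exact permutation p = 0.1, the smallest possible, 0.117 adjusted). Cxcr4 relative to Ccr1 overlapped between the groups, at 1.09 ± 0.218 and 0.901 ± 0.0579 (exact permutation p = 0.3).

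Cxcr4 (ENSMUSG00000045382; chromosome 1, 128588199 to 128592293), the receptor for the marrow retention signal Cxcl12, stood at 123, 123 and 151 FPKM in the controls and at 63.1, 63.3 and 59.3 FPKM with the fusion. Control replicate 3 was the highest, and the groups did not overlap. The change was -1.08 on the log2 scale (SE 0.0819, adjusted p = 7.44e-07 by limma). Cxcr2 (ENSMUSG00000026180; chromosome 1, 74153989 to 74161246), the neutrophil receptor for Cxcl1 and Cxcl2, showed the smallest fall of the 9, from 86.9, 75.7 and 79.7 FPKM to 47.5, 52.5 and 49.0 FPKM. It retained 61.5% of its control mean (log2 change -0.69, SE 0.0654, adjusted p = 4.14e-06 by limma). Among receptors in the controls, Cxcr4 (132 ± 16.4 FPKM), Ccr2 and Ccr1 (123 ± 12.5 FPKM) did not differ beyond their spread, and Cxcr2 (80.8 ± 5.66 FPKM) was below all 3. With the fusion the order was Ccr1 (68.7 ± 2.36 FPKM), Cxcr4 (61.9 ± 2.25 FPKM), Cxcr2 (49.7 ± 2.56 FPKM) and Ccr2, with no overlap between neighbours.

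Cx3cr1 (ENSMUSG00000052336; chromosome 9, 119901616 to 120069879), the fractalkine receptor of patrolling monocytes and macrophages, was low in both groups. It read 0.645, 0.592 and 0.689 FPKM in the controls and 0.291, 0.239 and 0.278 FPKM with the fusion, so that it stayed out of the main test, which required 1 FPKM in 3 libraries. When low genes were kept, it was called lower (log2 change -0.37, SE 0.0311, adjusted p = 6.66e-05 by limma), as were 26.8% of the 16289 genes of that test, with 34.4% called higher. An estimated 30 to 51 reads lay behind each RUNX1-RARA value, and the annotated span of the gene overlaps 9 other genes, 6 of them on the opposite strand.

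**Figure D2:**
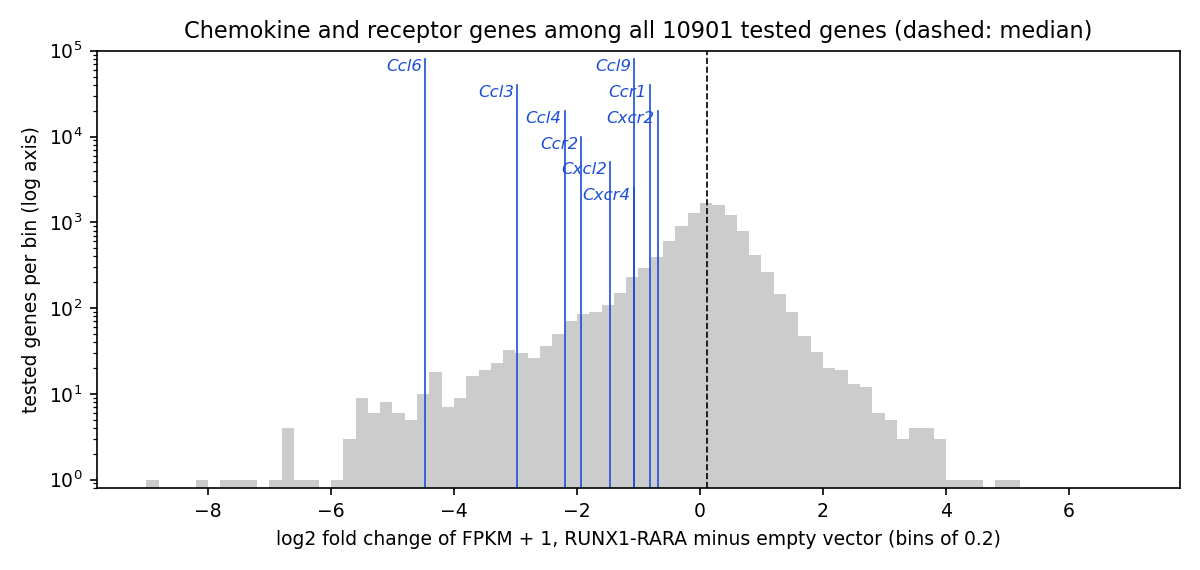
Number of tested genes by log2 fold change (RUNX1-RARA minus empty vector, bins of 0.2, count on a log axis), with the 9 tested chemokine and receptor genes as vertical lines. All 9 lie to the left of the median of 0.11 (dashed), from -4.47 for Ccl6 to -0.69 for Cxcr2.

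Genes next to these on the chromosomes did not all move with them. Beyond Ccl9, 42.4 kb away, lies Ccl5, a T cell chemokine that binds Ccr1. It rose from 0.167, 0.184 and 0.34 FPKM to 1.90, 1.49 and 1.25 FPKM (log2 change 1.04, SE 0.0972, adjusted p = 3.63e-06 by limma), although every control was under 1 FPKM and it passed the filter through the RUNX1-RARA libraries alone. On the other flank, 39.3 kb from Ccl4, Wfdc17, a gene of the whey acidic protein family, fell from 59.5 ± 4.96 to 0.26 ± 0.114 FPKM. It passed the filter through the controls alone. Beside Cxcl2, Mthfd2l rose from 0.694 ± 0.0831 to 2.2 ± 0.314 FPKM and passed through the RUNX1-RARA libraries alone. Rufy4, 5.8 kb from Cxcr2, fell from 2.73 ± 0.334 to 1.48 ± 0.213 FPKM. Ccr3, the eosinophil receptor between Ccr1 and Ccr2, was under 1 FPKM throughout (0.356 ± 0.0236 and 0.336 ± 0.0742 FPKM), and its groups overlapped. Ccr1l1, 8.6 kb from Ccr1, stayed under 1 FPKM too but rose from 0.0333 ± 0.0289 to 0.646 ± 0.202 FPKM, with no overlap. Next to Cxcr2, Cxcr1 was also under 1 FPKM. Like Cxcr2 it fell without overlap, from 0.318 ± 0.0492 to 0.0767 ± 0.0379 FPKM, on an estimated 2 to 4 reads in each RUNX1-RARA library. Dars, the gene before Cxcr4, was not called, with overlapping groups around 96.4 and 89.8 FPKM (limma adjusted p = 0.276). How reads were divided between similar genes such as Ccr1 and Ccr1l1, or Cxcl1, Cxcl2 and Cxcl3 is not stated, so their levels are uncertain.

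**Figure D3:**
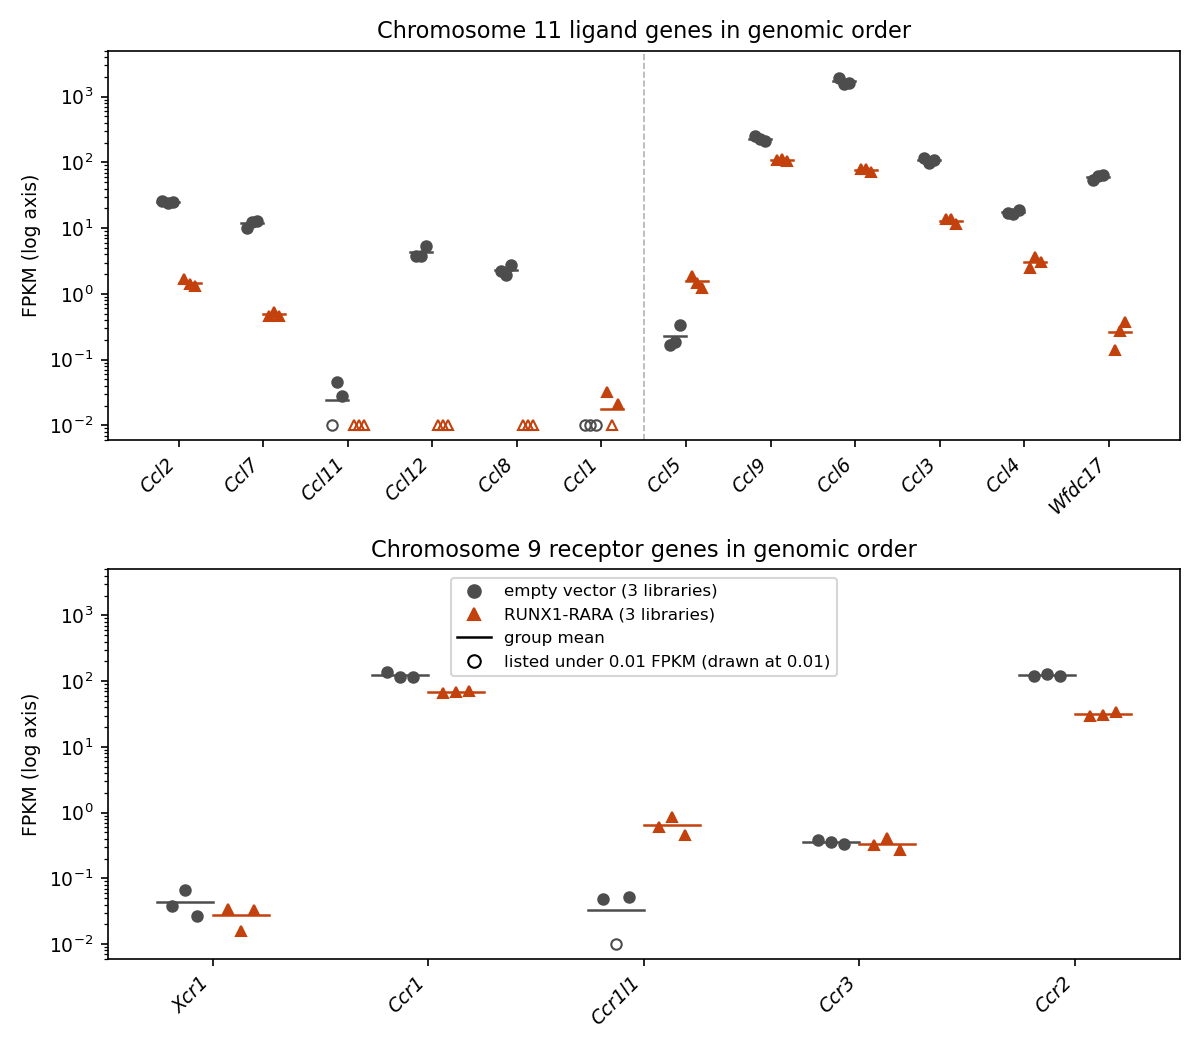
FPKM by library (log axis) of chemokine genes in genomic order on chromosome 11, where the dashed line stands for a stretch of genes not drawn, and of receptor genes on chromosome 9. Ccl9, Ccl6, Ccl3 and Ccl4 fell while the adjacent Ccl5 rose, and Ccr1 and Ccr2 fell on either side of Ccr1l1 and Ccr3. Both of these stayed under 1 FPKM, where Ccr1l1 rose without overlap and the groups of Ccr3 overlapped.

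The monocyte chemoattractants that pair with Ccr2 are encoded in a separate cluster of chromosome 11 and were lower as well. Ccl2 went from 26.3, 23.9 and 24.7 FPKM to 1.71, 1.42 and 1.30 FPKM (log2 change -3.39, SE 0.0723, adjusted p = 3.91e-11 by limma). Ccl7 fell 24.2-fold from 11.9 ± 1.51 to 0.489 ± 0.0426 FPKM, and Ccl12 went from 4.37 ± 0.928 FPKM to being listed at 0 in all 3 RUNX1-RARA libraries. Among other CC ligands, 8 of 17 were tested, 5 lower and 3 higher (31.7% lower and 46.0% higher over all tested genes). However, 6 of the 8 passed the filter through 1 group alone and so had to differ. Of the 2 that reached 1 FPKM in all libraries, Ccl2 was lower and Ccl25 higher. The 3 higher were Ccl5, Ccl22 and Ccl25 (the last 2 named after their values were seen).

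Of 16 other CXC, C and CX3C ligands 5 were tested, 4 lower and 0 higher (31.7% lower and 46.0% higher over all tested genes). Of the 5, 3 (Ppbp, Cxcl3 and Cxcl16) passed the filter through the controls alone and so had to differ. Pf4, platelet factor 4, stood at 33.7, 38.0 and 33.7 FPKM in the controls and at 4.07, 3.90 and 3.44 FPKM with the fusion. Ppbp, the platelet basic protein gene, fell 58.3-fold from 30.5 ± 1.05 FPKM, Cxcl3, a Cxcr2 ligand, 5.86-fold from 5.11 ± 0.171 FPKM, and Cxcl16, the ligand of Cxcr6, 22.3-fold from 2.74 ± 0.117 FPKM. Cxcl10, an interferon-induced chemokine, was not called, at 2.09 ± 0.675 and 1.75 ± 0.41 FPKM. Of the ligands that pair with the receptors above, Cxcl12 was listed at 0 in all 6 libraries, Cxcl1 at no more than 0.126 FPKM and Cx3cl1 at no more than 0.458 FPKM.

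Of 5 genes listed as atypical receptors, most of which bind chemokines without G protein signalling, 2 were tested. Ccrl2 fell 2.08-fold from 2.94 ± 0.207 to 1.41 ± 0.0878 FPKM (limma adjusted p = 3.25e-06), and Ackr4 was not called (1.44 ± 0.00874 and 1.44 ± 0.0822 FPKM). Ackr3, the second receptor of Cxcl12, was under 0.1 FPKM throughout.

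Genes that carry the receptor signal moved in both directions. Of 14 G protein and effector genes, 9 fell, 3 rose and 2 were not called (31.7% lower and 46.0% higher over all tested genes), with a median log2 fold change of -0.28 against 0.11 over all tested genes. Gnai2, the main inhibitory G protein alpha subunit of leukocytes, fell 1.94-fold from 389 ± 16.3 to 200.4 ± 10.4 FPKM. Rac2, the Rac GTPase of blood cells, fell 3.36-fold from 189 ± 3.33 to 56.3 ± 6.6 FPKM. Pik3r5, a regulatory subunit of phosphoinositide 3-kinase gamma, fell 6.43-fold from 10.5 ± 1.39 FPKM, while Pik3cg, its catalytic subunit, rose 1.22-fold from 33.1 ± 1.9 to 40.3 ± 0.613 FPKM. The other risers were Gng2 and Plcb3, and Plcb2 and Elmo1 were not called (these and Pik3cg were named after their values were seen). This balance depended on the scaling. Without mitochondrially encoded genes in the library sum, 6 fell, 6 rose and 2 were not called. All genes shifted with it: of the 10901 tested, 2370 were then called lower and 6893 higher, and the median moved by 0.24. Under that scaling Gnb1, a G protein beta subunit, turned from -0.14 to 0.13 (log2 change, adjusted p = 0.0397 by limma), Gnb2 (0.00) and Dock2 (-0.04) lost their calls, and Plcb2 (0.34) and Elmo1 (0.37) were called higher.

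Of 12 genes that switch the receptors off, 11 were tested, 9 lower and 2 higher, with a median log2 fold change of -0.64; over all tested genes, 31.7% were lower and 46.0% higher. Grk5, a receptor kinase, fell to 9.98% of its control level, from 3.35 ± 0.209 to 0.334 ± 0.057 FPKM, and passed the filter through the controls alone. Rgs2, which shortens G protein signals, fell 2.65-fold from 42.0 ± 2.76 FPKM. Rgs1, which damps chemokine receptor signals in leukocytes, went the other way, from 6.42, 6.82 and 5.93 FPKM to 19.0, 20.2 and 21.8 FPKM (log2 change 1.53, SE 0.068, adjusted p = 1.13e-08 by limma), and Rgs18 rose as well (named after its value was seen).

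**Figure D4:**
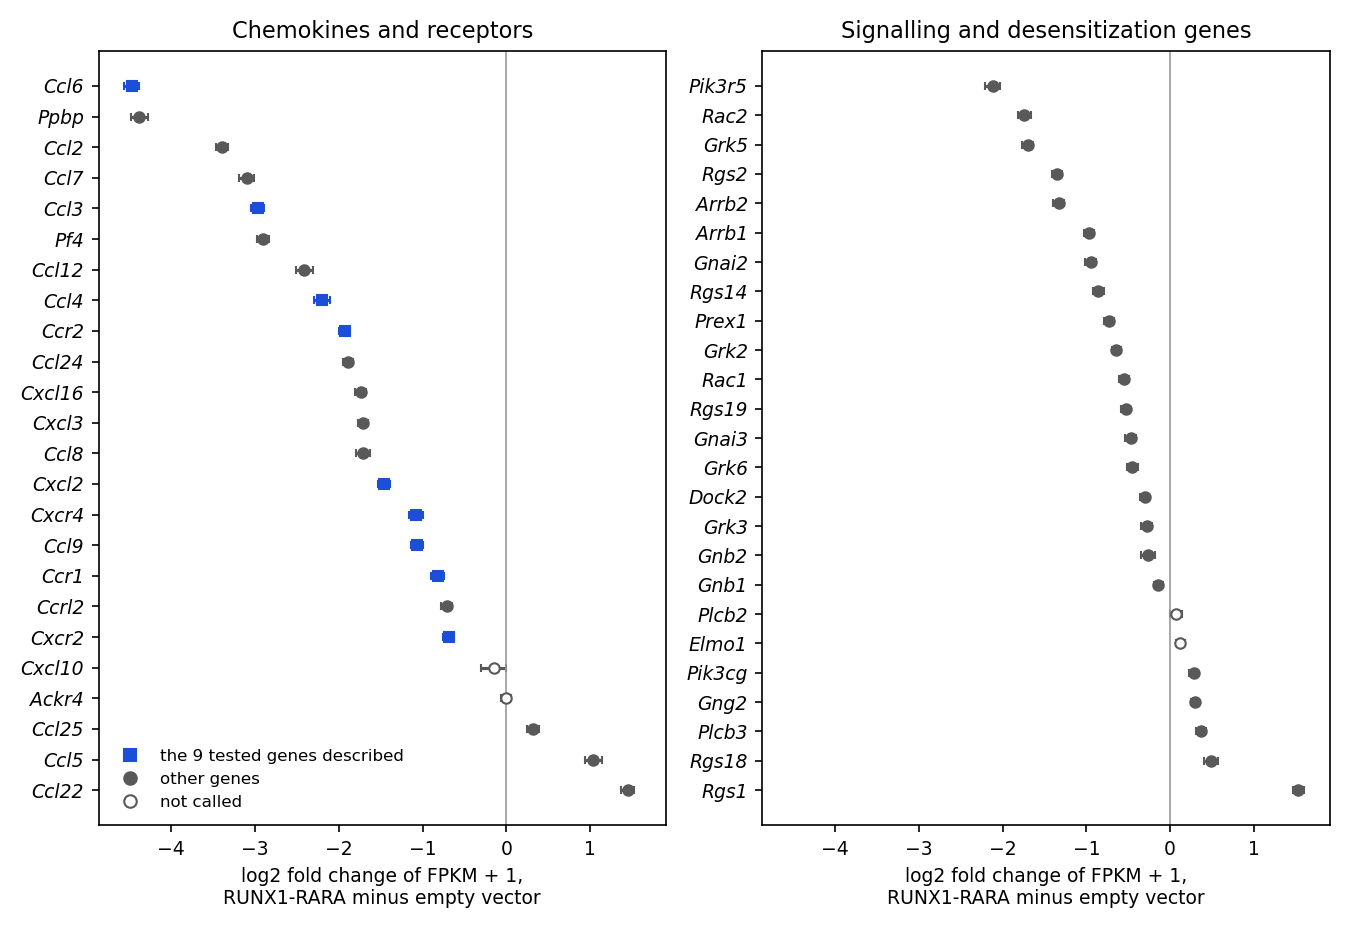
Log2 fold change of FPKM + 1 (RUNX1-RARA minus empty vector) with its standard error for tested ligand and receptor genes (left, squares for the 9 described above) and for signalling and desensitization genes (right); open symbols were not called. Values run from -4.47 for Ccl6 to 1.45 for Ccl22 on the left, and from -2.12 for Pik3r5 to 1.53 for Rgs1 on the right.

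For each of the 9 tested genes, the genes with the most similar levels were sought by the Euclidean distance between log2(FPKM + 1) over the 6 libraries. With 2 groups this likeness reflects the same level and the same fall, and it is a description. Nearest to Ccl3 was Sirpa (distance 0.267), to Ccl4 Themis2 (0.352), to Ccl9 Fcgr3 (0.232) and to Cxcl2 Pld1 (0.170), followed by Irf8 (0.212). Ccl6 had no close match, with Lyz2 nearest at 2.27. Among receptors, Ncf4 lay nearest to Ccr2 (0.349), Capzb to Ccr1 (0.258), Kmt5a to Cxcr2 (0.227) and Pde6h to Cxcr4 (0.235).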

How the data were processed

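RNA was measured in 6 libraries, grouped by the genotype label. The values are FPKM per gene as deposited by the authors, with 3 decimals, and all 6 columns were used. The submitters' processing notes name 2 builds (mm10 and hg38) and, as tools, DESeq2 1.32.0, featureCounts 2.0.1, HISAT2 2.2.1 and fastp 0.22.0, with no role or order. Neither the annotation nor the treatment of shared reads is stated. FPKM hold no counts, so read depth was inferred from the spacing of low values and exon lengths (GENCODE M21, 21591 of 21684 IDs matched). Per library, 82.6% to 90.8% of those values came within 0.1 of a whole read, too few to rebuild counts. Of these, 63.6% to 70.5% were even numbers of reads. Absolute depths and read numbers may therefore be too high, and relative depths are the firmer part.

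The test was limma 3.58.1 (R 4.3.3) on log2(FPKM + 1), group term and trended prior, over the 10901 genes that reached 1 FPKM in 3 or more libraries. P-values are two-sided and Benjamini-Hochberg adjusted over all of these, with calls under 0.05, and the code was tested on simulated data. A log2 change is RUNX1-RARA minus empty vector and understates the change of low genes; a fold is a ratio of mean FPKM. Coordinates are from GENCODE M21 on mm10. Deviations from the group means correlated at 0.0219, -0.375 and -0.0647 for libraries numbered 1, 2 and 3, so the numbers were not taken as pairs. The text names, besides the 10 genes, all tested genes of related lists with 5 or fewer, otherwise the 3 called genes of largest change, known partners, chromosomal neighbours and nearest genes by level, except that 2 genes of the lists are not reported here. Alternatives covered pseudocount, filter, scaling, prior, replicate block and each left-out library. The 10 genes and all lists were chosen with earlier results of these data known.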

Additional observations from a re-analysis of the deposited data

How the results depend on the processing

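The falls of the 9 tested genes kept their direction and their call under all 15 alternatives. Their log2 fold changes then ran from -4.59 to -4.20 for Ccl6, -3.09 to -2.71 for Ccl3, -2.49 to -1.97 for Ccl4, -2.06 to -1.67 for Ccr2, -1.90 to -1.27 for Cxcl2, -1.20 to -0.81 for Cxcr4, -1.19 to -0.80 for Ccl9, -0.95 to -0.56 for Ccr1 and -0.81 to -0.43 for Cxcr2. The median of all tested genes moved by -0.11 after TMM or median-of-ratios scaling and by 0.24 when mitochondrially encoded genes were left out of the library sum, and the share of called genes that were higher, 59.2% in the main test, was 49.9%, 49.4% and 74.4% under these 3 scalings. Keeping low genes changed the count of other pathway genes called higher from 9 of 41 tested to 15 of 71 tested. In that fit 34.4% of all 16289 genes were called higher. With the replicate number as a block, which does not mark known pairs, 8230 genes were called (4856 higher, 3374 lower), all 9 of the chemokine and receptor genes among them, and of the pathway genes only Gnb1 lost its call (-0.14, adjusted p = 0.0976). Of 615 values of 41 pathway genes, 583 kept both their direction and their side of the threshold, 14 lost the call, 7 gained it and 11 changed sign. Those that changed sign were Ackr4 (-0.07 after TMM and after median-of-ratios scaling, -0.03 to 0.02 when 1 library was left out), Plcb2 (-0.04 and -0.05 after the same scalings), Elmo1 (-0.00 after median-of-ratios scaling), and, without mitochondrially encoded genes in the sum, Cxcl10 (0.02), Gnb1 (0.13) and Gnb2 (0.00), with Cxcl10 also between -0.30 and 0.01 when 1 library was left out. Elmo1 gained a call (higher) without the filter, after equal-sum rescaling, after quantile normalization, without mitochondrially encoded genes and without RUNX1-RARA replicate 3. The cause was not tested. Values under 1 FPKM, such as those of Cx3cr1, rest on few reads.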

Other observations

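Of the low chemokine genes outside the falls, 3 that are neighbours on chromosome 8 were higher in every RUNX1-RARA library than in every control. This separation was seen in 46.8% of the genes of the main test, which left out Cx3cl1 and Ccl17. The 3 were noticed after their values were seen. Ccl22 (94745590 to 94751699 on mm10), a ligand of Ccr4, went from 0.306 ± 0.0552 to 2.57 ± 0.349 FPKM. Cx3cl1, fractalkine, went from 0.05 ± 0.0261 to 0.359 ± 0.0875 FPKM, and Ccl17, the other Ccr4 ligand, from 0.193 ± 0.152 to 0.929 ± 0.459 FPKM. When low genes were kept, their limma adjusted p-values were 7.79e-06, 0.00048 and 0.0183. Ccr4 itself, on chromosome 9, went from 0.0513 ± 0.0248 to 0.79 ± 0.127 FPKM (adjusted p = 2.28e-05 in the same fit), and Ccr1l1, beside Ccr1, from 0.0333 ± 0.0289 to 0.646 ± 0.202 FPKM (adjusted p = 0.000459). In that fit 34.4% of 16289 genes were called higher and 26.8% lower. Other low genes of the family went both ways in it. Cxcl5, Cxcr1 and Ackr1 were called lower (log2 changes of -0.38, -0.29 and -0.16) and Ccl27a higher (0.27).

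Markers of other cell types stood as follows. Summed basophil and mast cell markers (5 genes) went from between 1684 and 1798 FPKM to between 2648 and 2788 FPKM, but the rise was that of Cpa3 (554 ± 36.9 to 1864 ± 25.4 FPKM). Fcer1a, Prss34 and Ms4a2 fell 98-fold, 39.3-fold and 4.27-fold, and Mcpt8 was not called. Summed eosinophil markers (4 genes) went from between 228 and 233 FPKM to between 23.7 and 25.0 FPKM with the falls of Prg2 and Epx, while Siglecf (8.42 ± 0.132 to 18.4 ± 0.677 FPKM) and Il5ra (0.163 ± 0.0655 to 1.37 ± 0.0515 FPKM) rose. Dendritic cell markers (4 genes) went from between 27.1 and 28.8 FPKM to between 4.58 and 5.87 FPKM, most of it H2-Aa. T and NK cell markers (5 genes) stood between 25.9 and 28.6 FPKM and between 59.3 and 79.2 FPKM, nearly all of it Nkg7, with Cd3e and Ncr1 listed at 0 in all RUNX1-RARA libraries. B cell markers (3 genes) were at no more than 0.533 FPKM in sum, and stromal and endothelial markers (6 genes) went from between 35.0 and 36.2 FPKM to between 110.4 and 112 FPKM, nearly all of it Pecam1 and Pdgfrb. Of the 5 haematopoietic and progenitor markers, whose sum went from between 1556 and 1663 FPKM to between 943 and 1052 FPKM, Elane, Mpo and Ptprc fell. Cd34 rose 9.27-fold from 16.8 ± 0.556 to 155 ± 1.15 FPKM and Kit 1.41-fold from 19.2 ± 1.01 to 27.1 ± 1.35 FPKM.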
